A study of Mus musculus with 2 samples.

Results

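Rab proteins are small GTPases that mark the membranes of a cell and govern how vesicles bud, move, tether and fuse. The 50 Rab genes described here are those whose current symbol consists of Rab, a number and at most 1 letter, and which had at least 1 probe set naming that gene alone. They make up 50 of 12393 measured genes and were read by 95 probe sets, from 1 to 7 for a gene. RNA came from mouse spleen B cells carrying surface IgM and IgD, isolated by flow cytometry, in a series built to set cells lacking the transcription factor SRF against unmodified cells. Both arrays used here, replicate 1 and replicate 2, held wild-type cells without genetic modification, and the SRF-deficient arm was not analysed here. The labels give no strain, age, sex or treatment and do not state whether separate mice were used. The arrays were opposed in sex-linked genes, with Xist at 740.4 on replicate 1 and 15.3 on replicate 2 and Eif2s3y at 3.4 and 248.7, so they did not hold RNA of 1 source, and sex and sample cannot be told apart. With 2 samples of 1 group no difference could be tested between conditions, and no p-value was computed.

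A Rab cycles between a GTP-bound form on a membrane, which recruits effectors such as tethers and motors, and a GDP-bound form held in the cytosol by a GDP dissociation inhibitor. Exchange factors load GTP, and GTPase-activating proteins end the cycle. In B cells, antigen taken up by the B cell receptor passes through endosomes controlled by Rab proteins before its peptides are loaded on MHC class II molecules. Other Rabs serve regulated secretion in neurons, glands, platelets and cytotoxic cells, or transport in polarised epithelia.

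The deposited values were MAS5 signals, which are linear brightness values scaled per array. A signal was read against a floor, set for each array at the 90th percentile of 101 probe sets for 65 genes that mark unrelated organs, among them pancreas, retina, kidney and heart. The floor was 179 on replicate 1 and 96.3 on replicate 2, and the median of all gene probe sets was 103 and 66.6. A gene is called above both floors when a single probe set of it exceeded the floor of each array. By this measure 10 of 11 B cell markers were above both floors, the exception being the lineage factor Pax5 with 21.5 and 15.6, and so were 4 of 32 markers of 7 other cell types, namely Csf1r, Lyz2, Ngp and S100a9. T cell, NK cell, platelet, erythroid and dendritic cell markers contributed 0 of 20. Between the arrays, log2 signal had a pooled SD of 0.65, or 1.57-fold, over the 4635 probe sets above both floors. The matching SD of a difference between the arrays was 0.92. The arrays also differed in how signal fell along control transcripts. The ratio of 3' to 5' signal was 3.57 on replicate 1 and 8.15 on replicate 2 for Actb, and 1.31 and at least 8.56 for Gapdh, whose 5' signal of 13.5 on replicate 2 was set to the floor. The 3' to middle ratio was 1.08 and 8.46 for Gapdh but ran the other way for Actb, at 4.23 and 3.07. The activation gene Fos had 11855.8 and 592.6. The part of these differences in those below was not tested.

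Promoter sequence is shown for Rab14, Rab25 and Rab11a, as the 300 bases from 250 before to 50 after the annotated gene start. It comes from RefSeq on GRCm38.p6 and is on the strand of the gene. Rab14, which moves cargo between the trans-Golgi network and endosomes, was above both floors by 4 probe sets. Its window at chr2:35201071-35201370, minus strand, holds 27 CG dinucleotides. Rab25, an epithelial Rab of the recycling endosome, was above neither floor. Its window at chr3:88548230-88548529, minus strand, holds 9. Other members run against this contrast: Rab9 also had 9 and was above both floors, and Rab6b had 42 and was above neither. Capitals mark the CG dinucleotides.
Rab14: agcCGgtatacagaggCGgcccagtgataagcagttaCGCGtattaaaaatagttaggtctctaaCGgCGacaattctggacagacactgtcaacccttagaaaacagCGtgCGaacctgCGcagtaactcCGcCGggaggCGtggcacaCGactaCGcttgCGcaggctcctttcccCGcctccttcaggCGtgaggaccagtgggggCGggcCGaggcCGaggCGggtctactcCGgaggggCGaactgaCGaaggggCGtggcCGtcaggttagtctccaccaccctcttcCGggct
Rab25: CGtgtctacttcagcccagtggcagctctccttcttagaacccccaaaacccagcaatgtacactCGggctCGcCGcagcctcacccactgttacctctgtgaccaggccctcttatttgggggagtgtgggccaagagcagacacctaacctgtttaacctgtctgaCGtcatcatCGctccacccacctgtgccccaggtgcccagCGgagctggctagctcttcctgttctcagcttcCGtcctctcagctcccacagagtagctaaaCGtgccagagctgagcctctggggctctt

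Rab11a, the Rab of the slow recycling endosome, was the only member of the 42 with a listed promoter whose windows matched the CArG box, the site bound by SRF, the factor removed in the mutant cells of the series. The match, which reads the same consensus on both strands, begins 154 bases before the start (position -154) in the window at chr9:64737707-64738006, minus strand, and is in capitals.
Rab11a: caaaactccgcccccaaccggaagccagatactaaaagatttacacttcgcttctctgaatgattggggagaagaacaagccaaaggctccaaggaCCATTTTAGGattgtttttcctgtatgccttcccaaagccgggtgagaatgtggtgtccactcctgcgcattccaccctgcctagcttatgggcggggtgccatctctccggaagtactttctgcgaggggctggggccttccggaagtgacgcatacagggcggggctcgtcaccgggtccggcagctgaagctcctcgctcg
The consensus was found in 535 of 32851 RefSeq promoter windows, or 1.63%, and in 1.75% of the 9882 measured genes with a window. The match is a description of letters, and no SRF-deficient array was used here to set beside it.

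Of the 50 Rab genes, 17 were above the floor on both arrays, or 34.0%, against 28.4% of all 12393 genes. A further 13 were above it on replicate 2 alone and 2 on replicate 1 alone, and 18 were above neither floor, or 36.0%, against 47.2% of all genes. In such bulk RNA, fewer cells of a type and less RNA per cell cannot be told apart. On single arrays the Rab share was 38.0% against 36.4% of all genes for replicate 1, and 60.0% against 46.0% for replicate 2. Genes with several probe sets have more chances to exceed the floor. Among those with several, 11 of 27 Rab genes were above both floors, or 40.7%, against 41.4% of all such genes, and among genes with 1 probe set 6 of 23 were, or 26.1%, against 19.7%. The Rab shares above both floors were thus near those of all genes.

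**Figure D1:**
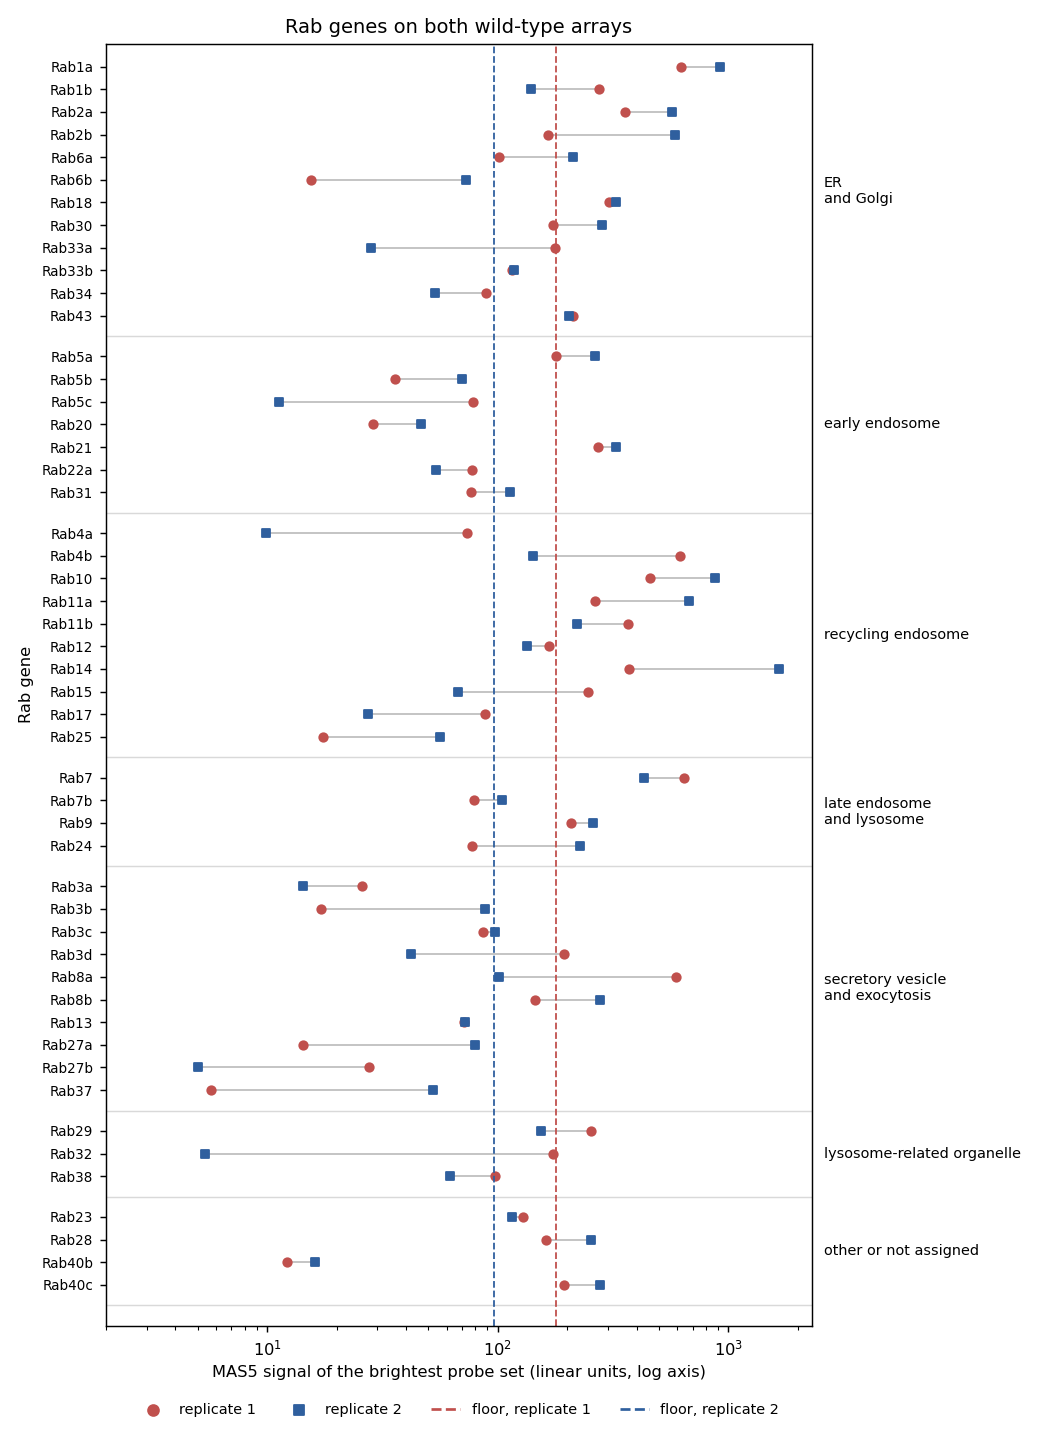
Signal of the brightest probe set of each of the 50 Rab genes on replicate 1 (circles) and replicate 2 (squares), in linear MAS5 units on a log axis, grouped by compartment, with the floor of each array (179 and 96.3) as dashed lines. Both points of Rab1a, Rab2a, Rab7, Rab10 and Rab14 lie to the right of both lines, while those of Rab3a, Rab25, Rab27b and Rab40b lie to the left of both.

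Compartments were assigned by hand from textbook locations, 1 per gene, and the counts depend on these choices. Rab10 and Rab34, for example, are described below with roles outside the group in which they were counted. The ER and Golgi group had 6 of 12 members above both floors, the recycling endosome group 5 of 10, the late endosome and lysosome group 2 of 4, the early endosome group 1 of 7, the secretory group 1 of 10 and the group of lysosome-related organelles 1 of 3. The remaining 4 members, with roles elsewhere, gave 1. Of all genes, 28.4% were above both floors. The groups also differed in probe sets, with 27 for the ER and Golgi group and 11 for the early endosome group. Counted on replicate 2 alone the early endosome group gave 4 of 7 and the late endosome group 4 of 4, and on replicate 1 alone they gave 1 and 2. The secretory group gave 3 of 10 on replicate 2 and 2 of 10 on replicate 1. The shares of all genes were 46.0% on replicate 2 and 36.4% on replicate 1. With so few members in a group, no difference between compartments was tested.

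**Figure D2:**
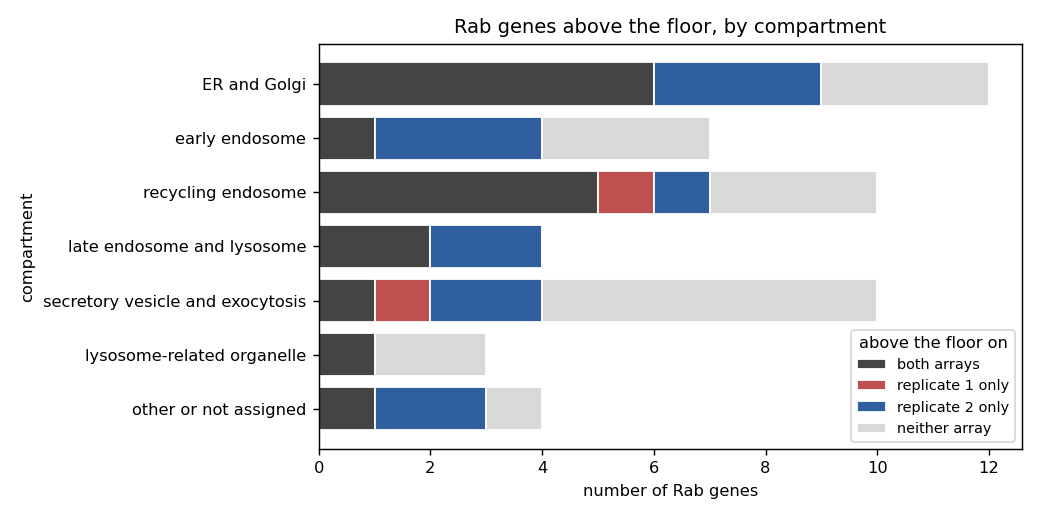
Number of Rab genes in each compartment, split by the arrays on which at least 1 probe set was above the floor. The ER and Golgi bar holds 6 genes above both floors and 3 above neither, and the secretory bar holds 1 and 6.

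Among the Rabs of the early secretory pathway, Rab1a and Rab1b, which drive transport from the ER to the Golgi, were both above the floors. Rab1a had signals of 624.6 on replicate 1 and 915.6 on replicate 2, averaging 770 ± 206 (SD, n = 2). Rab1b had 275.1 and 139.4, a mean of 207 ± 96.0 (SD, n = 2). The brighter array was replicate 2 for Rab1a and replicate 1 for Rab1b, with differences of -0.55 and 0.98 on the log2 scale (replicate 1 minus replicate 2). A second Rab1a probe set gave 126 and 74.9, below both floors. Rab2a, which acts at the intermediate compartment between ER and Golgi, had 356.5 and 566.9 by its brightest probe set, a mean of 462 ± 149 (SD, n = 2). Its 7 probe sets did not give 1 picture: a second was above both floors with 188.9 and 170.6, and 3 others gave 190.6 and 11.9, 75.9 and 12.1, and 82.4 and 4.2.

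Rab2b, the close relative of Rab2a, was above both floors only by a probe set with 257.2 on replicate 1 and 105.9 on replicate 2. Its brightest probe set ran the other way, with 165.6 and 585.1, the first below the floor. For Rab2b no direction between the arrays can therefore be given. Rab18, a Rab of the ER and lipid droplets, had 304.4 and 326.1, a mean of 315 ± 15.3 (SD, n = 2). Rab43, which acts in Golgi traffic, had 211 and 203.1, a mean of 207 ± 5.59 (SD, n = 2). These 2 were among the closest pairs of the family by their brightest probe sets, but a second Rab43 probe set gave 48.3 and 221.4. A second Rab18 probe set was below both floors, with 15.6 and 12.7.

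Rab6a, which carries vesicles back from the Golgi to the ER, was above the floor on replicate 2 alone by both of its probe sets, with 101.7 and 211.3, and 74.9 and 267.7. Rab30, a Golgi Rab, had 173.8 on replicate 1, just under the floor of 179, and 283.8 on replicate 2. Rab33b, which binds the autophagy factor Atg16l1, had 115.3 and 117, a near equal pair that fell on either side of the floors because these differ between the arrays. Rab6b, the neuronal relative of Rab6a, gave 15.5 and 73.1, and Rab34, known for lysosome positioning and cilia, at most 89.2 and 53.4. Rab33a, found mainly in brain and immune cells, gave 177.6 and 28.2 by its only probe set. These last 3 genes were above neither floor.

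Of the 7 early endosome Rabs 1 was above both floors, against 28.4% of all genes. A further 3 were above the floor on replicate 2 alone, and 3 were above neither, against 47.2% of all genes. Rab21, which directs the uptake of integrins, was the member above both floors and was so by both probe sets, with 271.4 and 325, and 188.7 and 220.6. Its log2 differences of -0.26 and -0.23 were both under the SD of a difference, 0.92. Rab5a, the organiser of early endosome fusion, had 178.2 on replicate 1 and 262.7 on replicate 2, so that it missed the floor of replicate 1 narrowly. Its paralogs were lower against the floors: Rab5b gave 36 and 70.1, and Rab5c gave 78.2 and 11.2, each by its only probe set. Signals of different probe sets are no measure of relative RNA amounts, so the 3 paralogs cannot be ranked.

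Rab31, which links the trans-Golgi network to endosomes, was above the floor of replicate 2 with 112.5, against 76.8 on replicate 1, and its other probe set was not. Rab22a, which acts in sorting from the early endosome, had 3 probe sets with 77.3 and 54.2, 34.6 and 105, and 172.2 and 18.2, of which only the second was above the floor of replicate 2. Rab20, of phagosome maturation, gave 28.7 and 46.6.

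Among the 17 genes above both floors, the recycling endosome Rabs Rab14 and Rab4b had the largest differences between the arrays next to Rab8a. By the brightest probe set Rab14 had 372.2 on replicate 1 and 1661.5 on replicate 2, averaging 1017 ± 912 (SD, n = 2), with a log2 difference of -2.16. Its other 3 probe sets above both floors lay close together, with 247.7 and 226.9, 209 and 210.9, and 200.9 and 212.2. The mean log2 difference over the 4 was -0.53, within 2-fold, against the 4.46-fold difference of the brightest alone. A further probe set gave 153.6, under the floor of replicate 1, and 415, and so leaned the same way as the brightest. Rab4b, a Rab of fast recycling to the surface, ran the other way, with 613.8 and 142.6, a mean of 378 ± 333 (SD, n = 2) and a 4.30-fold difference, by its only probe set. Its paralog Rab4a was above neither floor, with 73.8 and 9.9 at most.

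Rab11a had 264.5 and 672.2, a mean of 468 ± 288 (SD, n = 2) and a 2.54-fold difference in favour of replicate 2. Its other probe set gave 159.2 and 152.8, a near equal pair, the first below the floor. Rab11b, its paralog, had 366.1 and 220.9, a mean of 294 ± 103 (SD, n = 2). Rab10, which delivers receptors and the glucose transporter GLUT4 to the cell surface, was above both floors by all 3 probe sets, with 459.2 and 874.1, 209.6 and 159.4, and 218.2 and 142. They disagreed in direction, and their mean log2 difference was 0.03.

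Rab15, an inhibitor of endocytic recycling known from neurons, passed only the floor of replicate 1, with 245.3 against 67.1 on replicate 2. Rab12, which steers transferrin receptor to degradation, passed only the floor of replicate 2, with 167.1 and 133.4. Rab17 and Rab25, both typical of epithelial cells, were above neither floor, with at most 88.3 and 27.5 for Rab17 and 17.4 and 56.2 for Rab25.

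Rab7, which governs fusion of late endosomes with lysosomes, was above both floors by both probe sets. They gave 643.8 on replicate 1 and 429.9 on replicate 2, and 312.4 and 144.5, so both were higher on replicate 1, by 0.58 and 1.11 on the log2 scale, although the first became -0.05 after centring each array on its median. Rab9, which returns mannose 6-phosphate receptors from late endosomes to the Golgi, had 206.8 and 257.8, a mean of 232 ± 36.1 (SD, n = 2). Rab24, linked to autophagy, gave 77.4 and 226.7, and Rab7b, of traffic from endosomes to the Golgi, gave 78.8 and 103.8 by their brightest probe sets. Both were above the floor on replicate 2 alone.

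Of the secretory Rabs 6 of 10 were above neither floor, against 47.2% of all genes and 2 of 3 in the group of lysosome-related organelles. Rab8a, which delivers vesicles to the plasma membrane and the cilium, was the one above both. Replicate 1 gave 594.9 and replicate 2 gave 100.9, averaging 348 ± 349 (SD, n = 2), with a 5.90-fold difference, the largest among the 17 members above both floors. Only 1 probe set measured it, and its signal on replicate 2 was close to the floor of 96.3. Rab8b gave 145.4 and 277.4 by its brightest probe set, above the floor on replicate 2 alone. Its other probe set leaned the other way below both floors, with 63.3 and 10.1.

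The Rab3 proteins and Rab27 proteins are the classical Rabs of regulated exocytosis. Rab3a and Rab3b, of synaptic and endocrine vesicles, gave 25.9 and 14.3, and 17.1 and 87.8. Rab3c exceeded the floor of replicate 2 by little, with 86 and 97.5. Its other probe sets, with 95 and 5.7, and 11.4 and 4.3, were below both floors. Rab3d, of exocrine granules, exceeded the floor of replicate 1, with 194.2 and 42.1. All 3 other Rab3d probe sets were below both floors. Rab27a, needed for lytic granule release in cytotoxic T cells, was below both floors by all 3 probe sets, the brightest of which gave 14.3 and 79.8. Rab27b, of platelet granules, gave 27.7 and 5, and 19.2 and 6.2. Rab37, of mast cell granules, gave 5.7 and 52.6, and Rab13, of epithelial tight junctions, 71.1 and 72.1.

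Of the Rabs assigned to lysosome-related organelles, Rab29, which recruits the kinase Lrrk2, was above both floors with 254.3 and 153.7. Its mean was 204 ± 71.1 (SD, n = 2). Rab32 and Rab38, which supply melanosomes with pigment enzymes, were above neither floor. Rab38 gave 97.5 and 61.9. Rab32 gave 172.8 on replicate 1, near the floor, and 5.4 on replicate 2. Elsewhere, Rab40c, the substrate receptor of a ubiquitin ligase, was above both floors with 193.4 and 278.2, a mean of 236 ± 60.0 (SD, n = 2), though a second probe set gave 6.3 and 42.4. Rab28, of photoreceptor cilia, and Rab23, of hedgehog signalling, were above the floor on replicate 2 alone. Their brightest probe sets gave 162.3 and 252.8, and 128.2 and 115.8. The other Rab28 probe set, also above that floor alone, leaned the other way, with 162.7 and 124.6. The other Rab23 probe set was below both floors, with 6.7 and 5.5. Rab40b was above neither floor, with 12.2 and 16.2, and 8.5 and 2.4.

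Across the 17 Rab genes above both floors, 12 differed by less than 2-fold between arrays, judged by the brightest probe set. Of the others, Rab4b and Rab8a were over 2-fold higher on replicate 1, or 11.8%, the share of all 3520 genes above both floors being 11.8%. Rab2b, Rab11a and Rab14 were over 2-fold higher on replicate 2, or 17.6%, against 15.2% of all genes. The differences ran from -2.16 to 2.56 on the log2 scale with a median of -0.26, against -0.02 over all genes above both floors. By their mean over the probe sets above both floors, Rab14 lay within 2-fold and Rab2b was higher on replicate 1, which left Rab11a alone on the replicate 2 side. Centring each array on its median moved the median of all genes to -0.66 and put 7 Rab genes over 2-fold higher on replicate 2, along with 36.1% of all genes.

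Agreement between probe sets could be read for 5 Rab genes with several probe sets above both floors. Those of Rab7 and Rab21 agreed in direction, and those of Rab2a, Rab10 and Rab14 were opposed, 3 of 5. Among all 813 genes of this kind 404 were opposed, or 49.7%. The median range of the log2 difference among the probe sets of 1 gene was 1.02.

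**Figure D3:**
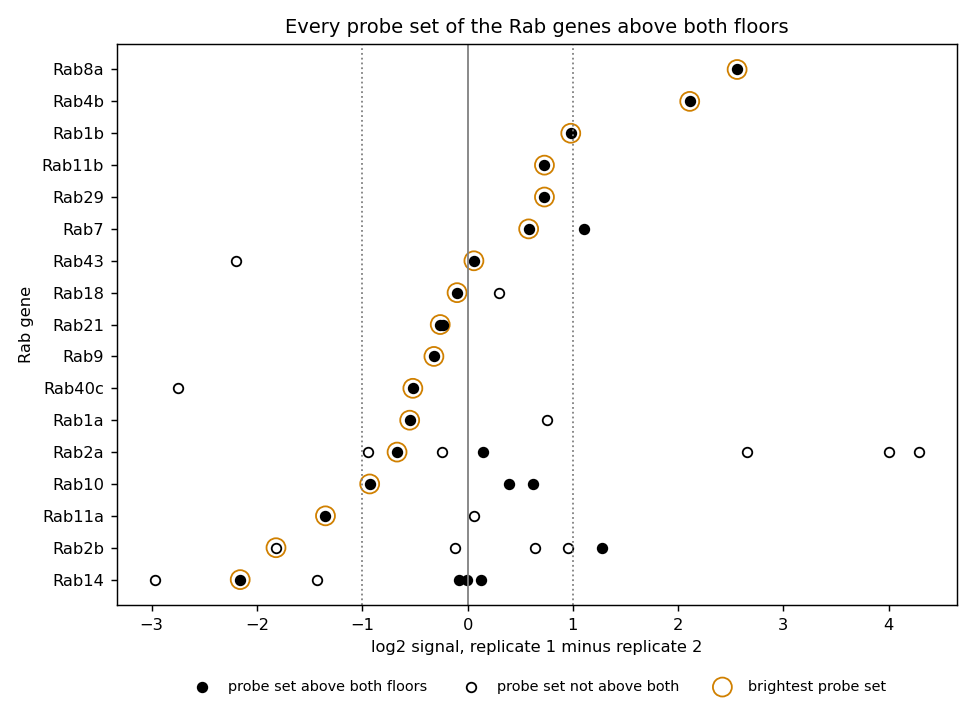
Log2 signal of replicate 1 minus replicate 2 for every probe set of the 17 Rab genes above both floors, filled where the probe set itself was above both floors, with the brightest probe set ringed and dotted lines at a 2-fold difference. The filled points of Rab21 coincide near -0.26, while those of Rab14 run from -2.16 to 0.13.

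Promoter windows were listed for 42 of the 50 genes, 54 windows in all. By the start with the most CG dinucleotides, the median was 26 per 300 bases for 15 Rab genes above both floors and 17 for 14 above neither. The same contrast was seen in all measured genes, with 24 and 14. The ranges overlapped, since Rab9 was above both floors with 9 CG dinucleotides and Rab11b and Rab29 with 12 each, while Rab6b had 42 and was above neither. Rab9 and Rab33a were the members on the X chromosome, with 9 and 7.

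**Figure D4:**
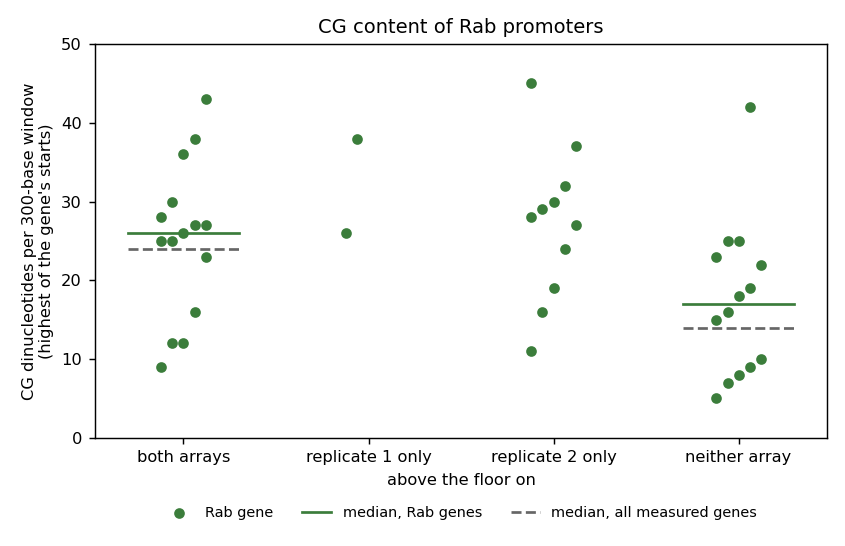
CG dinucleotides in the 300-base promoter window of each Rab gene with a listed window, by the arrays on which the gene was above the floor, with medians of the Rab genes (solid) and of all measured genes (dashed) in the outer classes. The Rab medians of 26 and 17 lie slightly above those of all genes, 24 and 14.

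The proteins that load, extract and switch off Rabs were read from lists by role. In the group for prenylation, escort and GDP dissociation 4 of 10 measured genes were above both floors, or 40.0%, against 28.4% of all genes, and all 4 were over 2-fold apart, as were 27.0% of all genes above both floors. Gdi2, which withdraws GDP-bound Rabs from membranes, had 2048.4 on replicate 1 and 4326.4 on replicate 2, but its 6 probe sets were opposed, another giving 426.1 and 228.1. Rabggta and Rabggtb, the subunits of the enzyme that attaches the geranylgeranyl anchor, had 411.8 and 110.1, and 300.5 and 140.5. Both were higher on replicate 1, by 1.90 and 1.10 on the log2 scale, each by 1 probe set. On replicate 2 the 110.1 of Rabggta was close to the floor of 96.3 and under the 95th-percentile floor of 139, which the 140.5 of Rabggtb barely passed. Rabac1, a Rab acceptor of the Golgi, had 449.1 and 152.2.

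Of 52 listed exchange factors 31 were measured, and 17 of these were above both floors, or 54.8%, against 28.4% of all genes. The share was 19.7% of all genes with 1 probe set, as most of the 31 have, and 41.4% of those with several. With the floor at the 95th percentile the count was 9, beside 19.0% of all genes. Their median log2 difference was -0.26, against -0.02 for all genes above both floors. Ccz1, part of the exchange factor for Rab7, had 482.8 and 795.9. Dennd4b, of the DENN family, had 456.8 and 551.2, and Dennd5a, of the same family, had 392.7 and 489. Sh3bp5, which acts on Rab11 and also binds the B cell kinase Btk, had 271.2 and 709.2 by its brightest probe set and 456.7 and 134.7 by the other. Hps4, part of the exchange factor for Rab32 and Rab38, had 190.1 and 487.4, a 2.56-fold difference. Of the TRAPP complex, which acts on Rab1, Trappc1 was 2.06-fold higher on replicate 2, with 192 and 395.8, and Trappc3 was 2.81-fold higher on replicate 1, with 380.3 and 135.2. The other 5 TRAPP genes above both floors, Trappc2, Trappc2l, Trappc4, Trappc5 and Trappc10, lay within 2-fold, with log2 differences from -0.77 for Trappc10 to 0.53 for Trappc2.

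GTPase-activating proteins were above both floors in 6 of 20 cases, or 30.0%, against 28.4% of all genes. Their median log2 difference by the brightest probe set was -0.49, against -0.02 for all genes above both floors. The brightest probe sets of Tbc1d15, with 158.1 and 248.5, and Tbc1d20, with 109.2 and 218.2, were below the floor of replicate 1. Tbc1d15 and Tbc1d20 each passed both floors by another probe set, which was higher on replicate 1. For this list no direction between the arrays can therefore be given. Tbc1d14, which also regulates autophagy, had 392.6 and 924 by its brightest probe set. Its others were below both floors and leaned the other way, with 98.2 and 17.8, and 52.3 and 31.4. Tbc1d22a had 341 and 126.9. Tbc1d10b had 325.2 and 259.2 and Tbc1d1, best known from glucose uptake in muscle, 213.5 and 267, both within 2-fold. The other Tbc1d1 probe sets, not above both floors, leaned the other way, with 120 and 91.1, and 109.4 and 57.2. Effectors and tethers were above both floors in 13 of 38 cases, or 34.2%, against the same 28.4% of all genes, with a median of 0.23. Vps41, a subunit of the HOPS tether that Rab7 recruits, had 339.9 and 660.9 by its brightest probe set, and its others above both floors were opposed, with 247.5 and 361.5, and 215.7 and 166.5. Golga5, a golgin that binds Rab1, had 456.5 and 390.1. Rilpl2, an effector of phosphorylated Rab8 and Rab10, had 711.5 and 277.5. Mical1, which oxidises actin and binds Rab proteins, had 249.3 and 686.9 by its brightest probe set and 278.1 and 157.5 by the other.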

How the data were processed

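Per the labels' protocols, biotinylated cRNA was made from 6 µg of total RNA, and per the submitters' processing notes the authors computed signal intensities with MAS5, with no version or settings given in the sources used here. The deposited intensity values are linear, 1 column per sample. With 2% of values trimmed from either end, the arrays averaged 150.0 each, so each had been scaled to a common target, which multiplies background too. No counts or detection calls were used, and precision is limited by having 2 arrays.

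Of 22690 probe sets, 64 controls were left out, and 20380 of the other 22626 named 1 gene, 691 several and 1555 were unnamed here. Names came from the platform annotation, and looking them up by Entrez identifier in RefSeq changed 0 symbols. The brightest probe set of a gene, by mean log2 signal, stood for it. Log2 differences subtract replicate 2 from replicate 1, without further scaling. By construction about 10% of the organ-restricted probe sets lie above each floor, and 4.95% were above both. Replicate numbers are names only, given in accession order.

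All Rab genes were named, with their values. From each list of regulators, up to 4 genes above both floors with the highest mean signal and those over 2-fold apart were named. The members, lists and floor were chosen with earlier results of these data known. Protein sequences were not used here, so the planned protein comparison was replaced by promoter windows. The steps were run in Python 3.11.15 with pandas 2.3.3. They were tested on simulated data with less noise than these arrays and with large changes in bright probe sets only. That test therefore says nothing of how reliable 2-fold calls or signals near the floor are here. The alternatives were other floors, quantile normalization, median centring, log2(signal + 32), leaving out _x_at probe sets, means over probe sets and leaving out each array.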

Additional observations from a re-analysis of the deposited data

How the results depend on the processing

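The count of 17 Rab genes above both floors was 12 with the floor at the 95th percentile (19.0% of all genes), 25 with the floor at the array median (43.0%) and 17 without _x_at probe sets. Using 1 array at a time it ranged from 19 (36.4% of all genes) to 30 (46.0%). In the same way the ER and Golgi count ranged from 6 to 9, the early endosome count from 1 to 4, the late endosome count from 2 to 4, the secretory count from 2 to 3 and the count of other members from 1 to 3, while the recycling count was 6 and that of lysosome-related organelles 1 on either array. Members higher by over 2-fold on replicate 1 numbered 1 with the 95th-percentile floor (8.38% of all genes above it) and 10 of 50 with no floor (33.3% of all genes). Over 2-fold higher on replicate 2 were 10 of 50 with no floor (18.4% of all genes), 7 with median centring (36.1%) and 1 when probe sets above both floors were averaged (10.1%). The median difference of -0.26 ran from -0.89 with median centring to 0.10 with the mean over all probe sets. Rab2b turned to 0.18 with the mean over all probe sets and to 1.28 when only those above both floors were averaged. With the 95th-percentile floor and the median floor, exchange factors gave 9 and 18, GTPase-activating proteins 2 and 11, effectors 9 and 21, and the prenylation and escort group 3 and 5. Of all genes, 19.0% and 43.0% were above these floors on both arrays. Of 102 alternative values for single Rab genes, 92 kept their size within the pooled SD or their side of 2-fold, 6 moved further, 2 came within 2-fold and 2, both of Rab2b, turned a difference of over 2-fold to the other sign. Part of the 92 was fixed beforehand. Leaving out _x_at probe sets changed no brightest Rab probe set, and median centring shifted all genes by 1 amount under the pooled SD. That shift still took Rab1a (-1.19), Rab2a (-1.30), Rab10 (-1.56) and Rab40c (-1.16) past 2-fold. Differences within 2-fold changed sign in 9 cases, in Rab1a, Rab2a, Rab7, Rab10, Rab18 and Rab43, most of all Rab2a, from -0.67 to 1.32 with the mean over all probe sets. Quantile normalization and log2(signal + 32) changed neither 2-fold count. No paired analysis was possible because there was 1 group. The cause of these changes was not tested. Signals near a floor, such as those of Rab5a, Rab30, Rab32 and Rab33a on replicate 1 and Rab8a and Rab3c on replicate 2, limit what can be called.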
